A study of Rattus norvegicus with 11 samples.

Results

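The hemoglobin and red blood cell transcripts were followed in the corpora quadrigemina, the paired colliculi of the midbrain, of seizure-prone and seizure-resistant rats. They were chosen by name from the genes that the study's supplementary list gives as differing between KM rats and W or “0” rats, by taking each hemoglobin symbol, Alas2 and Lgals5. This gave 4 of the 32883 genes counted in each rat, namely 2 entries named Hba-a2, which are called Hba-a2 A (ENSRNOG00000029886) and Hba-a2 B (ENSRNOG00000047321) here, Alas2 (ENSRNOG00000000167) and Lgals5 (ENSRNOG00000012557). No entry had a symbol beginning with Hbb, and a beta hemoglobin gene appeared in that list as LOC689064. All 4 transcripts were highest in W, lower in KM and lowest in “0” rats by their strain means. The W mean was 2.58 times the “0” mean for Hba-a2 A, 3.29 times for Hba-a2 B, 2.90 times for Alas2 and 7.26 times for Lgals5. No “0” rat reached the level of any W rat in any of the 4. The same held for 2.39% of the 13630 genes tested, and the choice from a list made with these rats favours it.

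The rats were males aged 4 months. KM (Krushinsky-Molodkina, n = 3) is an inbred strain bred from Wistar rats for seizures in response to sound, “0” (n = 4) was selected from hybrids of KM and Wistar rats for the lack of such seizures and is labelled as less prone, and W (n = 4) are outbred Wistar rats labelled as wild type. Rats of all 3 strains had been exposed to sound 4 days before they were killed by decapitation. Their earlier history differed, since KM rats had met the test sound 1 time and “0” rats 3 times at the age of 3 months, while W rats were tested at the later exposure and those that ran in response to it were left out. Strain and sound history therefore cannot be told apart. Each library held poly(A) RNA of 1 rat and both pairs of colliculi together, and whether blood was washed out of the vessels is not given in the sources used here.

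Mature red blood cells of mammals have no nucleus, but young ones, the reticulocytes, still carry messenger RNA as they leave the bone marrow, and nearly all of it encodes hemoglobin and the proteins that complete the cell. Hemoglobin joins a pair of alpha chains and a pair of beta chains around haem. Alas2 encodes the erythroid form of 5-aminolevulinate synthase, the first and rate-limiting enzyme of haem synthesis, and Lgals5 encodes galectin-5, a lectin of rat reticulocytes and erythrocytes that binds galactosides. RNA of brain tissue contains such transcripts through the blood in its vessels, and alpha hemoglobin can also be made in neurons and glia. In a whole piece of tissue, fewer cells of a type and less RNA per cell cannot be told apart.

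The authors deposited whole reads per gene. From 10545964 to 15140180 reads per rat were counted on genes (median 11861682), so that 3 counts, the smallest amount taken as detected, corresponded to 0.198 to 0.284 CPM (counts scaled to the library, whose size was taken as all reads counted on genes) depending on the rat. KM 3 stood apart from the other rats in the markers of the choroid plexus, the tissue that makes cerebrospinal fluid. The 6 of 9 such markers with a symbol summed to 7780 CPM in KM 3 and to between 14.6 and 67.9 CPM in the other 10 rats, and the most abundant of them was Ttr, the thyroxine carrier transthyretin, with 7179 CPM in KM 3. The 10 genes with most counts held 7.94% of the reads of KM 3, 7.95% of those of “0” 4, 29.2% of those of “0” 3 and between 13.9% and 19.0% of those of the other 8 rats. Fold changes and strain mean ratios that use KM rats are therefore also given without KM 3 for the 4 transcripts, and for genes of the lists where that moved a value printed here by over 1.5 times or changed a call.

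Alpha hemoglobin was abundant in every rat. Hba-a2 A was at 1952, 1995 and 1181 CPM in KM 1 to 3, at 1195, 776, 753 and 1448 CPM in “0” 1 to 4, and at 2674, 2172, 1653 and 4247 CPM in W 1 to 4. W and “0” rats did not overlap, whereas KM 1 and KM 2 lay above W 3 and KM 3 lay below “0” 1 and “0” 4. Hba-a2 B was at 718, 673 and 335 CPM in KM, at 433, 305, 275 and 361 CPM in “0”, and at 1185, 942, 739 and 1656 CPM in W rats. For this entry each W rat was above each KM and “0” rat, and KM 3 lay within the range of the “0” rats. The 2 entries share a symbol and are copies of the alpha hemoglobin gene, so reads could be split between them by the counting and their sum is the safer measure. This sum made up 0.386%, 0.311%, 0.239% and 0.590% of the reads of the 4 W rats, 0.267%, 0.267% and 0.152% of those of the 3 KM rats, and 0.163%, 0.108%, 0.103% and 0.181% of those of the 4 “0” rats. The widest 95% Wilson interval was 0.586% to 0.595%, in W 4, and covers the counting of reads alone.

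Alas2 showed the same order at a lower level. It was at 58.4, 61.4 and 33.4 CPM in KM, at 32.4, 27.1, 21.0 and 35.9 CPM in “0”, and at 85.6, 65.7, 52.4 and 134 CPM in W rats. As for Hba-a2 A, W 3 fell among the KM rats and KM 3 among the “0” rats, and W 4 was the highest rat. Lgals5 was the scarcest of the 4 and the one with the widest range. It was at 6.31, 5.45 and 1.52 CPM in KM, at 2.46, 2.66, 1.79 and 1.03 CPM in “0”, and at 19.6, 8.84, 12.6 and 16.6 CPM in W rats, which for the lowest rat, “0” 4, is 14 counts and for the highest, W 1, is 242 counts. W rats were above all others, and KM 3 again lay among the “0” rats.

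**Figure D1:**
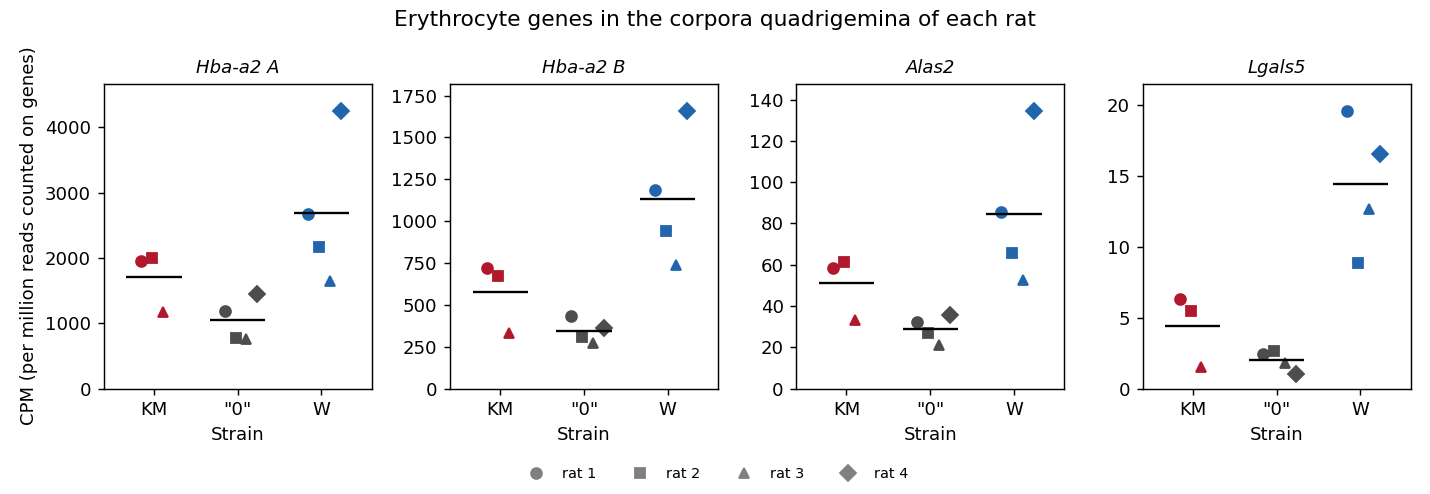
CPM of the 4 transcripts (vertical axes, 1 panel per transcript, each with its own scale from 0) in each rat of the KM, “0” and W strains (horizontal axes). Each point is a rat, its shape gives the rat's number within the strain and the line is the strain mean. W rats lie above “0” rats in all 4 panels, KM 3 is the lowest KM rat in each, and W 4, at 4247 CPM of Hba-a2 A and 134 CPM of Alas2, is the highest rat in 3 of them.

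Strain means and SDs summarise this pattern. Hba-a2 A averaged 1709 ± 458 CPM in KM (SD, n = 3), 1043 ± 338 in “0” (n = 4) and 2686 ± 1121 in W rats (n = 4). Hba-a2 B averaged 575 ± 210, 343 ± 69.2 and 1131 ± 395 CPM, Alas2 51.0 ± 15.4, 29.1 ± 6.50 and 84.5 ± 35.9 CPM, and Lgals5 4.43 ± 2.55, 1.99 ± 0.737 and 14.4 ± 4.67 CPM in the same order of strains. Neighbours in this order were not all separated by their spread, since KM and “0” rats overlapped in all 4 transcripts and KM and W rats in Hba-a2 A and Alas2. From the lowest to the highest of the 11 rats the range was 5.64-fold for Hba-a2 A, 6.02-fold for Hba-a2 B, 6.40-fold for Alas2 and 19.0-fold for Lgals5.

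Promoters of an alpha hemoglobin gene, a beta hemoglobin gene, Alas2 and Lgals5 are shown as background, and their part in the differences between rats was not tested. Each stretch runs from 250 bases before to 50 bases after the start of the gene, read 5′ to 3′ on the strand of the gene, from the RefSeq annotation of the rat assembly GRCr8. The counts were made on the older assembly Rnor_6.0, so these positions belong to RefSeq and not to the counts, and which RefSeq alpha hemoglobin gene corresponds to Hba-a2 A or Hba-a2 B was not worked out. LOC689064 has the RefSeq gene ID of Hbb-bs, a beta hemoglobin gene. The capitals mark the letters GATAA or, on the opposite strand, TTATC, the core to which GATA factors such as the erythroid regulator GATA1 are known to bind. The windows are chr10:15829089-15829388 on the minus strand for Hba-a2, chr1:167631581-167631880 on the minus strand for Hbb-bs, chrX:22895200-22895499 on the plus strand for Alas2 and chr10:64355088-64355387 on the minus strand for Lgals5.
Hba-a2: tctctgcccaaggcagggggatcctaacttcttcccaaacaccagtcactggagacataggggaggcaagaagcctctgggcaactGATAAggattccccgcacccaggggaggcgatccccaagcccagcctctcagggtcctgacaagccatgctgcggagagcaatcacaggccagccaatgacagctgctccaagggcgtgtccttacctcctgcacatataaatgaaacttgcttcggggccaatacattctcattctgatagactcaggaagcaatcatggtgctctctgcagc
Hbb-bs: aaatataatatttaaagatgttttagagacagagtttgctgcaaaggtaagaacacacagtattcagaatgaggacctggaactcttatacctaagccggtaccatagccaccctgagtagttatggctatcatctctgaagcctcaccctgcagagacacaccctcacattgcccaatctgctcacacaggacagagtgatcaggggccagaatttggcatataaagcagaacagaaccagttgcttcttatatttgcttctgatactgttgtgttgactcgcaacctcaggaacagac
Alas2: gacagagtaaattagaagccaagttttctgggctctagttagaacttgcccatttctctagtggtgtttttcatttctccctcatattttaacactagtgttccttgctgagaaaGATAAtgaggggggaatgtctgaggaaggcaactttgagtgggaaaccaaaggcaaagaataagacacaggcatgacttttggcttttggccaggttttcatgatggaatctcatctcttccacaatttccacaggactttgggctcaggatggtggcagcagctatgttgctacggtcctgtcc
Lgals5: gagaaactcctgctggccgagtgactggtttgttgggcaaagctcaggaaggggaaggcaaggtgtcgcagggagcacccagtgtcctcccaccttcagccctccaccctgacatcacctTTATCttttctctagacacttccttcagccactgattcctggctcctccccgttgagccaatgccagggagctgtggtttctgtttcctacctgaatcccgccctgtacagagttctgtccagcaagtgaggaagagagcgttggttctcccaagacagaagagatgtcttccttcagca

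GATAA occurred once in the window of Hba-a2, 164 bases before the start, once in that of Alas2, 135 bases before it, and once on the opposite strand in that of Lgals5, 130 bases before it. It did not occur in the window of Hbb-bs, and 26.5% of the 33469 RefSeq promoters of this length hold it on either strand. Further motifs known from hemoglobin promoters were searched on both strands. The first was CACCC, which the erythroid factor KLF1 binds as part of a longer motif and which reads as GGGTG from the opposite strand. The second was CCAAT, a box of many promoters, which reads as ATTGG from the opposite strand. The first occurred in the windows of Hba-a2 (1 match), Hbb-bs (3 matches) and Lgals5 (2 matches) and in 54.9% of all promoters. The second occurred in those of Hba-a2 (2 matches), Hbb-bs (1 match) and Lgals5 (1 match) and in 37.5% of all promoters, and neither was found in the window of Alas2. No match of one motif overlapped a match of another in these 4 windows. Matches of this kind are common and describe the letters only. The Hba-a2 window is identical to that of Hba-a1, the neighbouring alpha hemoglobin gene, at 288 of 300 bases (96%), and to that of Hba-a3, a further alpha hemoglobin gene, at 77 of 300 bases (25.7%), so the copies are not all alike in this window.

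The comparison of “0” with W rats asks how far a strain selected for the absence of seizures from hybrids with KM differs from the Wistar background. The list from which the 4 genes came holds no “0” vs W comparison, but it was made with the same W and “0” rats, so the choice favours low p values here and the tests are not independent evidence. In the quasi-likelihood F-test (QLF test) of edgeR all 4 were lower in “0” rats at an unadjusted p under 0.05, a threshold that 3.43% of the 13630 genes tested met in this direction, and nothing is read from that contrast. The log2-fold change (“0” relative to W, on TMM-scaled libraries) was −1.40 for Hba-a2 A (SE 0.31, Benjamini-Hochberg adjusted p = 0.196 in edgeR), −1.73 for Hba-a2 B (SE 0.26, adjusted p = 0.0520) and −1.57 for Alas2 (SE 0.29, adjusted p = 0.111). For Lgals5 it was −2.84 (SE 0.37, adjusted p = 0.0247 in edgeR). In this fit Lgals5 was below an adjusted p of 0.05, a level reached by 10 genes lower in “0” rats (0.0734% of those tested), and the other 3 were above it. Which of the 4 were below it depended on the settings. The adjusted p of Hba-a2 B was 0.0495 with edgeR's newer QLF method, 0.0456 with edgeR's filterByExpr, 0.0141 with no filter, 0.0312 without W 3 and 0.0283 without W 4, that of Alas2 was 0.0421 with no filter and 0.0476 without W 4, all 4 were below 0.05 with DESeq2's Wald test (0.00129 for Hba-a2 A, the highest), and all 4 were at 0.249 in edgeR with the replicate number as a block. The adjusted p of Lgals5 rose above 0.05 when “0” 1 (0.0511), “0” 2 (0.0857), “0” 3 (0.106) or W 1 (0.0878) was left out, while its log2-fold change stayed between −3.03 and −2.56. All 4 were without overlap between the strains, as were 2.39% of the genes tested in this direction, and the choice favours this too. The p values weigh the strain difference against the variation among these 8 rats, in a model that also draws on the other genes.

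KM and W rats differ in seizure proneness and in the history of their breeding. Because the 4 genes were taken from genes listed as differing in this comparison or from “0” rats, their values are given here as a description without a test. The log2-fold change of KM relative to W rats was −0.76 (SE 0.37) for Hba-a2 A, −1.07 (SE 0.37) for Hba-a2 B, −0.83 (SE 0.38) for Alas2 and −1.80 (SE 0.50) for Lgals5. Without KM 3 these values were −0.52, −0.77, −0.57 and −1.35, so the direction did not rest on that rat although the size did in part. Without W 4 they were −0.40, −0.79, −0.47 and −1.70, so the size for Hba-a2 A and Alas2 rested in part on W 4 as well. With the replicate number as a block they were −0.43, −0.85, −0.50 and −1.80. Hba-a2 B and Lgals5 were without overlap between KM and W rats, lower in KM, as were 2.88% of the 13721 genes tested (6.52% on TMM-scaled CPM). The ratio of the W to the KM mean was 1.57 for Hba-a2 A, 1.96 for Hba-a2 B, 1.66 for Alas2 and 3.25 for Lgals5, and 1.36, 1.62, 1.41 and 2.45 without KM 3.

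KM and “0” rats are the closest strains in ancestry and differ in seizure proneness. Here too the values only describe. The log2-fold change of KM relative to “0” rats was 0.64 (SE 0.26) for Hba-a2 A, 0.65 (SE 0.28) for Hba-a2 B, 0.73 (SE 0.24) for Alas2 and 1.04 (SE 0.54) for Lgals5. Without KM 3 these values were 0.89, 0.96, 1.0 and 1.49, with KM 1 and KM 2 above each “0” rat in all 4 transcripts and KM 3 within the range of the “0” rats. Leaving out KM 1 instead lowered them, to 0.52, 0.45, 0.61 and 0.69, and for Lgals5 the value was 0.61 with the replicate number as a block, so its size depended on single rats and on the fit. The ratio of the KM to the “0” mean was 1.64, 1.68, 1.75 and 2.23 for Hba-a2 A, Hba-a2 B, Alas2 and Lgals5, and 1.89, 2.03, 2.06 and 2.96 without KM 3. The comparisons share rats with each other, so the 3 sets of values are not independent.

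Alas2 kept a nearly fixed ratio to alpha hemoglobin. Its reads were 2.19%, 2.30% and 2.20% of the summed Hba-a2 reads of the same rat in KM, 1.99%, 2.51%, 2.04% and 1.98% in “0”, and 2.22%, 2.11%, 2.19% and 2.28% in W rats. The range over the 11 rats was 1.26-fold, compared with 6.40-fold for the CPM of Alas2 itself, and the strain means of 2.23% ± 0.0620 (SD, n = 3) in KM, 2.13% ± 0.252 (n = 4) in “0” and 2.20% ± 0.0689 (n = 4) in W rats lay within the spread of the “0” rats. That spread rested on “0” 2, which was above every KM and W rat, whereas “0” 1, “0” 3 and “0” 4 were below all of them. A ratio of reads is compared between rats for the same gene only, since transcript length enters it.

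**Figure D2:**
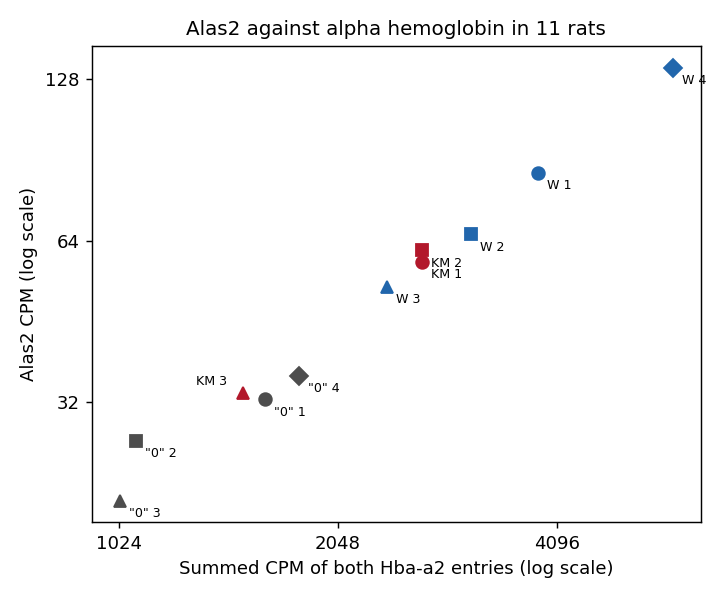
CPM of Alas2 (vertical axis, log scale) against the summed CPM of both Hba-a2 entries (horizontal axis, log scale) in the 11 rats, with colours for the KM, “0” and W strains. The rats lie close to a straight line from “0” 3 at the lower left to W 4 at the upper right, and KM 3 lies among the “0” rats.

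Lgals5 did not keep such a ratio. Its reads were 0.236%, 0.204% and 0.100% of the Hba-a2 reads in KM, 0.151%, 0.246%, 0.175% and 0.0568% in “0”, and 0.507%, 0.284%, 0.529% and 0.281% in W rats, a 9.31-fold range. Each W rat was above each KM and “0” rat by this measure as well, and KM and “0” rats overlapped. The share of Hba-a2 B among the Hba-a2 reads was 26.9%, 25.2% and 22.1% in KM, 26.6%, 28.2%, 26.7% and 19.9% in “0”, and 30.7%, 30.3%, 30.9% and 28.1% in W rats. W 4 was here just below “0” 2, and since the entries are copies, whether this share differs through the genes or through the assignment of reads was not tested.

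Slc4a1, the beta hemoglobin entry LOC689064 and Rhd also varied relative to alpha hemoglobin. Slc4a1, the anion exchanger band 3 of the red cell membrane, was at 0.205% to 0.290% of the Hba-a2 reads in KM, at 0.227% to 0.430% in “0” and at 0.418% to 0.689% in W rats. W 2 was slightly below “0” 2 by this measure, and all KM rats were below all W rats. LOC689064 was at 2.54%, 2.98% and 2.58% in KM, at 5.49%, 2.53%, 2.24% and 3.01% in “0”, and at 3.60%, 19.9%, 10.3% and 10.4% in W rats. W 1 was below “0” 1 and well below the other W rats, so the W rats were not alike in this ratio. LOC689064 is an entry of a beta hemoglobin gene, and its reads need not be all those of beta hemoglobin. Rhd, a Rh blood group protein, had another order, with strain means of 0.117% ± 0.0381 (SD, n = 3) in KM, 0.195% ± 0.0378 (n = 4) in “0” and 0.161% ± 0.0421 (n = 4) in W rats. The strains overlapped in it, with “0” and not W rats the highest on average.

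**Figure D3:**
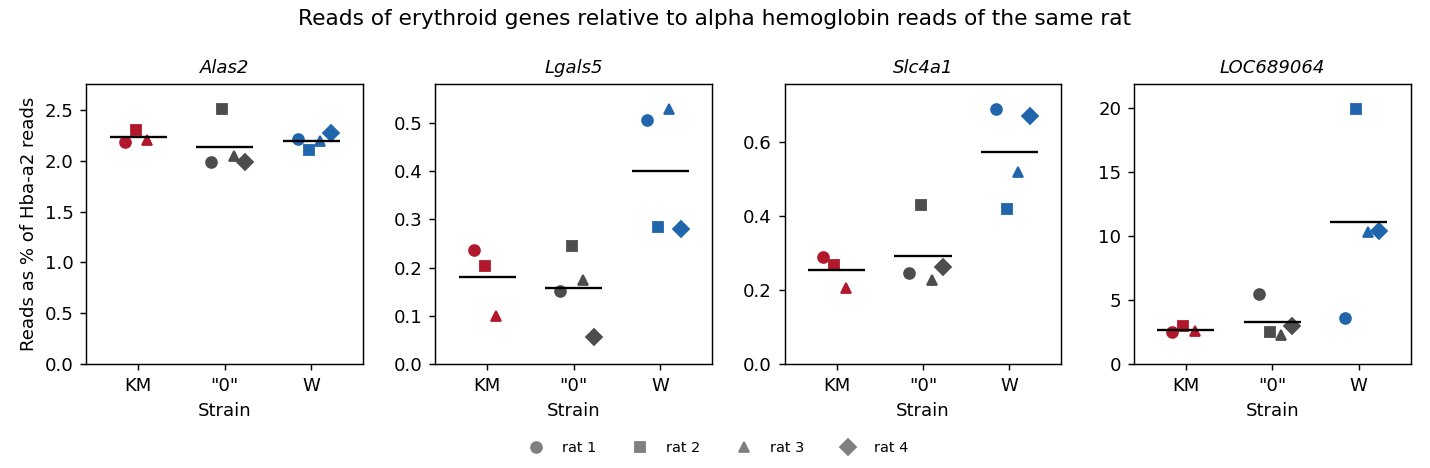
Reads of Alas2, Lgals5, Slc4a1 and LOC689064 as a percentage of the summed Hba-a2 reads of the same rat (vertical axes from 0, each panel with its own scale) in the KM, “0” and W strains. Points are rats, their shapes give the rat's number and lines are strain means. Alas2 stays between 1.98% and 2.51% in all rats, whereas the W rats lie above the KM rats in the other 3 panels.

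The 4 transcripts varied together over the rats, and by Pearson's r Alas2 and alpha hemoglobin were the closest pairs. Over the 11 rats, log2 CPM of Alas2 and Hba-a2 A had a Pearson's r of 0.986 and a Spearman's rho of 0.982, and within strains (deviations from the strain means) the r was 0.963. For Alas2 and Hba-a2 B r was 0.980, within strains 0.952, and rho 0.900, which is below the rho of 0.909 for Hba-a2 B and Lgals5. Lgals5 followed less closely, with r = 0.876 to Alas2 (0.584 within strains), 0.810 to Hba-a2 A (0.416) and 0.934 to Hba-a2 B (0.733). These correlations describe 11 rats that share 3 strains, and the values of a rat share its library.

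By the likeness of their log2 CPM to that of Alas2, the 13693 genes with a mean of at least 1 CPM were led by Hba-a2 A and Hba-a2 B in Pearson's r. By Spearman's rho Hba-a2 A and Cd52 shared the lead (0.982) and Hba-a2 B was at rank 10 (0.900), and within strains Hba-a2 B was at rank 3. Next by Pearson's r came Rbm38 (r = 0.956), an RNA-binding protein, Slc4a1 (0.954), Rsad2 (0.942), the antiviral interferon-induced protein viperin, and Cd52 (0.941), a surface glycoprotein of lymphocytes. The other 4 of the 10 leading genes had no symbol in the list used for names and had r from 0.898 to 0.936. Without W 4 and “0” 3, the rats farthest from the median of Alas2, r was 0.968 for Hba-a2 A, 0.976 for Hba-a2 B, 0.919 for Rbm38, 0.904 for Slc4a1, 0.877 for Rsad2 and 0.902 for Cd52. Lgals5 was 17th and LOC689064 33rd (r = 0.829) in this order. Within strains they fell to ranks 1286 (r = 0.584) and 1757 (r = 0.518). The log2-fold change of “0” relative to W rats was −1.18 for Rbm38, −1.40 for Rsad2 and −2.05 for Cd52, and −1.29, −0.73, −0.58 and −0.27 for the 4 genes without a symbol. Genes picked for following Alas2 over all rats share its differences between strains by construction. On deviations from the strain means, r to Alas2 was 0.892 for Rbm38, 0.946 for Slc4a1, 0.814 for Rsad2 and 0.828 for Cd52, which put them at ranks 14, 4, 108 and 79 of all genes. Over all rats without KM 3 it was 0.985 for Hba-a2 A, 0.981 for Hba-a2 B, 0.955 for Rbm38, 0.953 for Slc4a1, 0.960 for Rsad2 and 0.946 for Cd52.

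Other erythroid genes were read from lists of globins, haem synthesis, red cell membrane and skeleton, and erythroid regulators and maturation. Of their 65 symbols, 15 could be matched, to 16 entries because Hba-a2 has 2, and 12 of these entries were not among the 4 genes above. Names came from a list of genes that differed between KM and W or “0” rats, so many calls are built into the choice for these comparisons, and the “0” vs W comparison uses the same rats. Between KM and W rats, 9 of the 12 were lower in KM at an unadjusted p under 0.05 (5.33% of all genes tested), 3 were higher (5.58%) and none had an adjusted p under 0.05 in edgeR. DESeq2's Wald test called 9 as lower and 2 as higher at an unadjusted p under 0.05 (5.84% and 4.97% of all genes under that test). Their median log2-fold change was −1.28, against 0.01 for all genes tested. Without KM 3, 8 were lower (5.75% of all genes tested in that fit) and 1 was higher (5.86%), with a median of −1.18.

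Between “0” and W rats 7 of the 12 were lower in “0” (3.43% of all genes tested), 1 was higher (3.26% of all genes tested) and 4 were not called (Cpox, Fech, Xk and Klf1), with a median log2-fold change of −0.80 against −0.01 for all genes. None had an adjusted p under 0.05 in edgeR, and DESeq2's Wald test called 7 as lower and 1 as higher at an unadjusted p under 0.05 (3.28% and 3.5% of all genes under that test). Between KM and “0” rats, 9 of the 12 had the mean of 1 CPM needed for the test. Of these none was higher (2.37% of all genes), 1 was lower (Klf1, against 1.29% of all genes) and 8 were not called, with a median of 0.11 against 0.01, and of 0.09 without KM 3. No gene was called as lower without KM 1, KM 3, “0” 1, “0” 2 or “0” 3 (2.26% of all genes without KM 3), or by DESeq2's Wald test, which called none in either direction (background 2.12% higher and 1.58% lower). Without KM 3, Slc4a1 was called as higher (background 4.49%). There was also 1 gene called as higher without KM 2, “0” 1 or “0” 4, in a single fit of all 11 rats and with the replicate number as a block. Epb42, Kel and Ahsp lacked that mean in KM and “0” rats and Klf1 in KM rats (0.946 CPM), and they passed the filter against W or “0” rats through the strain where they are high, so that they had to differ. Without them the KM vs W counts were 5 lower and 3 higher of 8, with a median log2-fold change of −0.34. Without Epb42, Kel and Ahsp the “0” vs W counts were 4 lower, 1 higher and 4 not called of 9, with a median of −0.28. Without Klf1 no gene was called between KM and “0” rats.

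Among the globins, LOC689064 was at 67.9, 79.4 and 39.2 CPM in KM, at 89.4, 27.4, 23.1 and 54.4 CPM in “0”, and at 139, 620, 246 and 615 CPM in W rats. Every W rat was above every other rat, and the W rats themselves spread 4.46-fold. The log2-fold change was −2.80 (SE 0.58) in KM relative to W (−2.53 without KM 3), 0.28 in KM relative to “0”, which was not called (0.57 without KM 3, not called), and −3.09 in “0” relative to W (SE 0.57, adjusted p = 0.111 in edgeR).

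In haem synthesis the values of the other enzymes with a name lay closer to 0 than those of Alas2. Uros, uroporphyrinogen III synthase, was higher in “0” than in W rats by 0.56 (SE 0.19, adjusted p = 0.553 in edgeR) on the log2 scale, and KM rats were above W rats by 0.52 (0.40 and not called without KM 3). Cpox, coproporphyrinogen oxidase, was higher in KM than in W rats by 0.53 (SE 0.16), and its log2-fold change between “0” and W was 0.06. Fech, ferrochelatase, which puts the iron into haem, was lower in KM than in W rats, at −0.30 (SE 0.12; −0.25 and not called without KM 3), and had −0.25 between “0” and W (adjusted p = 0.767 in edgeR). These enzymes act in all cells that make haem, whereas Alas2 is the erythroid form of its step.

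Among red cell membrane genes, Slc4a1 was at 7.76, 7.18 and 3.10 CPM in KM, at 4.0, 4.65, 2.33 and 4.77 CPM in “0”, and at 26.6, 13, 12.4 and 39.6 CPM in W rats. All W rats were above all others. Its log2-fold change was −2.04 (SE 0.53; −1.69 without KM 3) in KM and −2.57 (SE 0.41, adjusted p = 0.0652 in edgeR) in “0” relative to W, and 0.53 (SE 0.37, not called) in KM relative to “0” rats. Without KM 3 the last value was 0.89 and was called. Epb42 (protein 4.2, which binds band 3), Kel (the Kell blood group peptidase) and Rhd (a Rh blood group protein) were also lower in both strains than in W rats, by log2-fold changes of −1.57, −2.07 and −1.30 in KM (−1.34, −1.60 and −1.21 without KM 3) and −2.07, −2.83 and −1.10 in “0”. Epb42 and Kel were near the detection limit, with no more than 15 counts in any KM or “0” rat. Xk, which pairs with Kell, was higher in KM than in W rats by 0.40 (SE 0.17; 0.41 and not called without KM 3) and was not called between “0” and W (0.06).

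Among regulators and maturation genes, Ahsp, the chaperone of free alpha hemoglobin, was at 0.682, 0.692 and 0.727 CPM in KM, at 0.693, 1.14, 0 and 0.661 CPM in “0”, and at 4.45, 2.52, 3.03 and 3.02 CPM in W rats. The “0” 3 rat had no read of it, which allows up to 0.269 CPM at its depth, and the other rats below W had 8 to 12 counts. Its log2-fold change was −2.30 in KM (SE 0.31) and −2.40 in “0” rats (SE 0.54) relative to W. Ahsp entered both fits through the W rats, where it is high, so these values describe and no test is given.

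Klf1, the transcription factor that activates adult beta hemoglobin, followed another order of strains. It was at 0.767, 1.21 and 0.859 CPM in KM, at 1.92, 2.56, 1.35 and 1.17 CPM in “0”, and at 2.10, 2.76, 1.60 and 2.07 CPM in W rats. It was lower in KM than in W rats (−1.27, SE 0.32) and than in “0” rats (−1.0, SE 0.41, adjusted p = 0.987 in edgeR; −0.87 and not called without KM 3), with a log2-fold change of −0.28 between “0” and W (adjusted p = 0.971). KM 2 lay just above “0” 4, and the other KM rats lay below all “0” and W rats. Blvrb, biliverdin reductase B, was lower in KM (−0.38, SE 0.15) and in “0” rats (−0.50, SE 0.16) than in W rats.

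**Figure D4:**
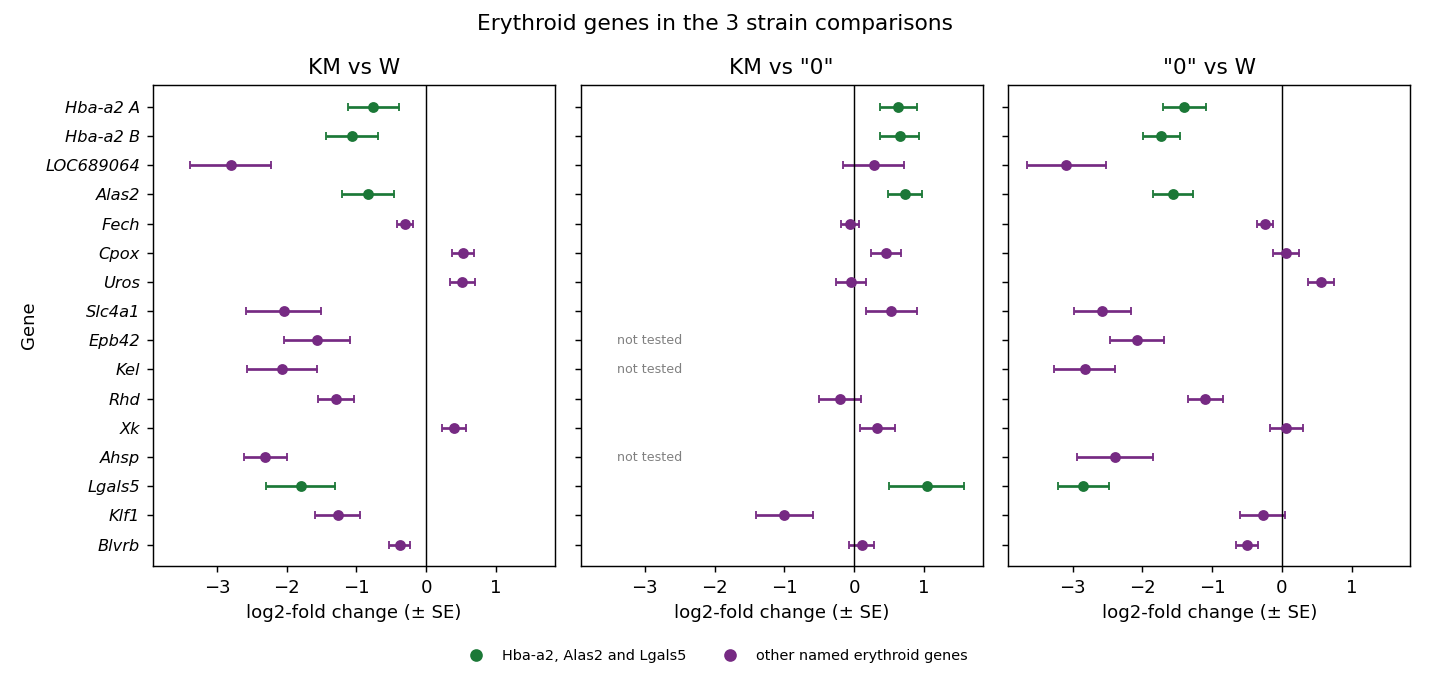
Log2-fold changes (horizontal axes, points, bars are SE) of the 4 chosen transcripts in green and the 12 other named erythroid genes in purple, with a panel each for KM vs W (left), KM vs “0” (middle) and “0” vs W (right). Most points of the left and right panels lie below 0, down to −3.09 for LOC689064 in “0” vs W, while Uros, Cpox and Xk lie at or above 0 there, and 3 genes below the mean of 1 CPM have no value in the middle panel.

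Markers of the other cells that a piece of midbrain with its vessels can hold moved in several ways. Some moved in the direction of the 4 chosen transcripts and some against it. The 5 of 12 endothelial markers with a name, of which Flt1, a receptor for vascular endothelial growth factor, was the most abundant, summed to 290 to 322 CPM in KM, 229 to 299 CPM in “0” and 192 to 213 CPM in W rats. W rats were exceeded by KM rats in all 5 (background 5.58%) and by “0” rats in 4 of them (3.26%) at an unadjusted p under 0.05. Since the names come from the list of differing genes, such calls are built into the choice here as well, and without KM 3 the first count was 4 (background 5.86%), with Slco1c1 not called. Egfl7, a protein secreted by endothelium, had a log2-fold change of 1.39 in KM relative to W (adjusted p = 0.0479 in edgeR, and 0.105 without KM 3). The other endothelial genes were Emcn (endomucin), Kdr (a further receptor for vascular endothelial growth factor), Flt1 and Slco1c1 (a thyroxine transporter), with 0.84, 0.61, 0.36 and 0.32 in KM relative to W and 0.58, 0.37, 0.34 and 0.15 in “0” relative to W, the last not called. W rats, the highest by mean in the 4 chosen transcripts, were thus the lowest in this sum. Of the other erythroid genes, Uros, Cpox and Xk had their lowest mean in W rats. The 2 of 16 leukocyte markers with a name, Lyz2 (lysozyme) and Ptprc (CD45), summed to 21.9 to 38.5 CPM in KM, 6.46 to 25.2 CPM in “0” and 12.6 to 20.3 CPM in W rats, and W and “0” rats overlapped. Neither was called between “0” and W rats, but the sums of KM and W rats did not overlap on plain CPM. That separation was lost once the TMM factors (1.02 in KM 2 and 0.917 in W 4) were applied. Ptprc was higher in KM than W rats by 1.16 on the log2 scale (adjusted p = 0.360 in edgeR, 1.36 without KM 3). It had no overlap on plain CPM, as for 9.38% of genes tested with KM above W. Lyz2 was higher in KM than “0” rats by 0.87 (adjusted p = 0.987 in edgeR, 0.59 and not called without KM 3). The 5 of 8 pericyte and smooth muscle markers, led by Vtn, summed to 141 to 158, 139 to 196 and 122 to 168 CPM in KM, “0” and W rats, with overlap between the strains.

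Single genes of that list differed although the sum overlapped. Kcnj8 and Abcc9, the subunits of a potassium channel of pericytes, were higher in KM (0.43 and 0.34 on the log2 scale) and in “0” rats (0.72, adjusted p = 0.116 in edgeR, and 0.53, adjusted p = 0.438) than in W rats. On plain CPM neither gene overlapped with W rats in either comparison. The same held for 9.38% of genes tested with KM above W and 1.42% with “0” above W, and the choice of names favours it. Rgs5, a regulator of G protein signalling, was higher in KM than W rats by 0.37 and had 0.27 between “0” and W, which was not called. Acta2, smooth muscle actin, was lower in KM than W rats, at −0.70, and Vtn was not called against W rats in either strain. Without KM 3, Abcc9 was the 1 gene of the 5 called between KM and W (background 5.86% higher and 5.75% lower). Between KM and “0” rats 2 of the 5 were lower in KM (background 1.29%), namely Acta2 at −0.55 (adjusted p = 0.987 in edgeR) and Vtn at −0.46 (adjusted p = 0.987 in edgeR), the latter without overlap on plain CPM (background 0.789%), and neither was called without KM 3 (−0.44 and −0.31). This is opposite to the strain means of the 4 chosen transcripts, which were higher in KM than in “0” rats.

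The choroid plexus markers were higher in KM rats, and most of the size of the difference rested on KM 3. Against W rats 5 of the 6 were called as higher in KM (background 5.58%), with log2-fold changes of 7.27 for Ttr, 4.89 for Kl (klotho), 2.96 for Kcne2 (a potassium channel subunit), 3.01 for Clic6 (a chloride channel protein) and 3.54 for Slc4a5 (a bicarbonate transporter), and Folr1, a folate receptor, had 2.01 and was not called. Against “0” rats all 6 were called as higher in KM (background 2.37%), with Ttr at 11.4 and the others between 2.12 and 5.06. Without KM 3, 2 were called against W (Kl at 0.97 and Kcne2 at 0.97, background 5.86%) and 3 against “0” rats (background 4.49%, Ttr at 4.93, Kl at 1.16 and Kcne2 at 1.05). Ttr, Clic6 and Slc4a5 were then at 0.78, 0.11 and 0.74 against W rats and were not called. Against “0” rats Clic6 and Slc4a5 were then at 0.23 and 0.15 and were not called. Folr1 then turned to −0.73 against W and −0.60 against “0” rats and was not called. Ttr was lower in “0” than W rats, at −4.13 (adjusted p = 0.326 in edgeR), without overlap (background 2.39%), at 1.08, 1.33, 0.538 and 0.147 CPM in “0” and 2.43, 5.84, 43.6 and 2.59 CPM in W rats. That is the direction of the 4 chosen transcripts, and the other 5 markers were not called between “0” and W rats.

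Of the 4 astrocyte markers 2 had a name. Gfap, the intermediate filament of astrocytes, was higher than in W rats in KM (0.62, adjusted p = 0.360 in edgeR) and in “0” rats (0.68, adjusted p = 0.404), and was at 0.78 in KM without KM 3. On plain CPM Gfap did not overlap with W rats in either strain, as for 9.38% (KM above W) and 1.42% (“0” above W) of genes tested. This separation was lost once the TMM factors (1.11 in KM 3, 1.0 in “0” 2 and 0.917 in W 4) were applied. Aldh1l1, a folate enzyme of astrocytes, was lower in KM than W rats (−0.46, adjusted p = 0.320 in edgeR) and had 0.02 between “0” and W, and it was lower in KM than in “0” rats as well (−0.48, adjusted p = 0.987 in edgeR). Tmem119, the 1 named of 6 microglia markers, was higher in KM than W rats (0.49, adjusted p = 0.334 in edgeR) and had 0.16 between “0” and W, not called. None of the markers named was at 0 in all rats, none of the 8 platelet markers or the 7 neuron markers had a name, and the part of vessels, blood volume or dissection in the strain differences was not tested.

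Among genes that handle the haem and iron of red cells, 1 of 10 had a name. It was Slc40a1, the iron exporter ferroportin, which was higher in “0” than in W rats by 0.70 on the log2 scale (SE 0.27, adjusted p = 0.642 in edgeR) and lower in KM than in “0” rats, at −0.83 (SE 0.27, adjusted p = 0.987 in edgeR). Of the galectins, 2 of 9 had a name. Lgals9, galectin-9, differed from Lgals5 in its values against W rats, with log2-fold changes of 0.63 in KM (adjusted p = 0.445 in edgeR) and 0.15 in “0” rats (adjusted p = 0.986 in edgeR). Between KM and “0” rats both were on the same side, with 0.47 for Lgals9 (not called, and 0.77 and called without KM 3) and 1.04 for Lgals5 (1.49 without KM 3). KM 3 was the lowest KM rat and “0” 4 the lowest “0” rat in both.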

How the data were processed

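Poly(A) RNA of 11 rats was sequenced with 75-bp single-end reads. Per the labels and the methods of the study, the authors trimmed reads with Trimmomatic, aligned them to Rnor_6.0 with STAR and used HTSeq-count for the reads on each gene (versions not given in the sources used here). The authors deposited counts, whole reads per gene without normalization. The 12 entries naming no gene were left out of library sizes. Reads outside genes made up 16.5% to 22.7% and ambiguous reads 1.44% to 2.36% of a rat's reads, and the entry for reads mapping to several places was 0 in each rat, so reads shared by identical hemoglobin copies may be missing.

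Genes, lists and tests were chosen with earlier results of these data known. The genes named are the chosen 4, genes of the erythroid lists that were called or give the range, the 10 genes most like Alas2, and of each marker list the most abundant gene and those called. Symbols came from the study's supplementary list of differing genes (1763 identifiers), whose fold changes and p values were not used. Some genes of the lists were left out and are not reported here. Names of most genes, and therefore full lists, were not used here.

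Each pair of strains was fitted on its own rats in R 4.3.3 with edgeR 4.0.16 (limma 3.58.1), TMM factors and the original form of the QLF test. Genes entered a fit when their mean over its rats reached 1 CPM, and a gene was called when its unadjusted p was under 0.05, as in the study, with Benjamini-Hochberg adjusted p over all genes tested. The SE is the log2-fold change over the square root of F. CPM printed per rat is scaled by the reads counted on genes, without TMM factors, and likeness used log2 CPM with TMM factors and a prior count of 2. DESeq2 1.42.0, its size factors, other filters, the newer QLF method, a single fit, a replicate block and leaving out each rat were alternatives. Replicate rats differed by more than the sampling noise (chi-square per degree of freedom 18.6 to 211). The labels name the rats as separate samples. Intervals and floors cover counting error only. On simulated KM vs W data (13721 genes, 200 changed 4-fold), 99.5% of changed and 4.99% of unchanged genes had p under 0.05, and 86% of changed genes had an adjusted p under 0.05.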

Additional observations from a re-analysis of the deposited data

Results flagged for a closer look

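The ratio of Alas2 to alpha hemoglobin reads in “0” 2 was 2.51%, apart from the other 3 “0” rats, which lay between 1.98% and 2.04%. It was the only case among the 44 groups of 4 rats examined in which the gap of 1 rat to its nearest neighbour, divided by the range of the group, passed 0.829, the 95% critical value of Dixon's test (it was 0.888), and chance gives this in about 1 of 20 groups. The groups examined do not cover all genes printed here. For example, Ttr was at 43.6 CPM in W 3 and at 2.43 to 5.84 CPM in the other W rats.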

How the results depend on the processing

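The log2-fold changes of Hba-a2 A, Hba-a2 B, Alas2 and Lgals5 kept their direction in each comparison under all alternatives run. Over the fits that left out 1 rat they ranged, in “0” vs W, from −1.58 to −1.03 for Hba-a2 A, −1.89 to −1.43 for Hba-a2 B, −1.74 to −1.19 for Alas2 and −3.03 to −2.56 for Lgals5. By Spearman's rho the likeness of Hba-a2 B to Alas2 was 0.900, against 0.980 by Pearson's r. The adjusted p of Lgals5 in “0” vs W (0.0247) ranged from 0.0339 to 0.106 in these fits, was 0.249 with the replicate number as a block, and was 7.21e-11 with DESeq2's Wald test. The numbers do not pair the rats: deviations of same-numbered rats correlated from −0.183 to 0.190 in KM vs W, 0.0581 to 0.236 in KM vs “0” and −0.579 to 0.513 in “0” vs W. The count of genes called in KM vs “0” (500) was 777 with no filter and 781 with the replicate block, and ranged from 280 (without “0” 3) to 921 (without KM 3) with 1 rat left out. That of KM vs W (1497) ranged from 954 (without W 1) to 1831, and that of “0” vs W (912) from 612 to 1017. The erythroid lists had 8 to 11 genes called in KM vs W, 0 to 2 in KM vs “0” and 8 to 9 in “0” vs W with 1 rat left out. In KM vs “0”, where 1 was called, 0 were called with DESeq2's Wald test, 2 in a single fit of all 11 rats and 2 with the replicate block. Genes with an adjusted p under 0.05 numbered 9, 2 and 15 in KM vs W, KM vs “0” and, last, “0” vs W, 147, 40 and 119 with the Wald test, 17, 7 and 28 with no filter, and 5, 3 and 0 with the replicate block. With 1 rat left out they numbered 1 to 14, 0 to 5 and 1 to 20. On TMM-scaled CPM the share of genes without overlap between KM and W rats was 6.52% (KM below W) and 5.12% (KM above W), against 2.88% and 9.38% on plain CPM, and 2.30% higher and 2.33% lower in KM than in “0” rats, against 3.92% and 0.789%. In “0” vs W it was 1.99% lower and 2.33% higher, against 2.39% and 1.42%. Several checks were chosen after seeing the data. They are this comparison of overlap, the alternatives for the adjusted p of Lgals5 in “0” vs W, and the leave-2-out and KM 3 checks of likeness. The lists without KM 3 and those without genes under 1 CPM in a strain were also chosen then. The cause of these changes was not tested. Depth limits Ahsp, Kel and Epb42, with few counts outside W rats.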
